A study of Arabidopsis thaliana with 2 samples.

Results

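Oleosins are the small proteins that coat the oil bodies of seeds. The 4 oleosin genes described here are *OLEO1* (AT4G25140), *OLEO2* (AT5G40420), *OL3* (AT5G51210) and *OL2* (AT3G27660, also called *OLEO4*). They were taken by gene identifier, with earlier results of these data known, and are 4 of the 733 genes in the deposited stem table. In the WT stem library all 4 were read, with 1669 to 5156 reads each. In the *cep1* stem library *OLEO1*, *OL3* and *OLEO2* had no read, and *OL2* kept 137 reads, 12.8-fold fewer than in the WT after scaling to library totals.

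An oil body is a droplet of triacylglycerol enclosed by a single layer of phospholipid. Oleosins sit in this layer through a long hydrophobic stretch, which folds back on itself at a conserved proline knot, and they keep the droplets of a drying seed small and apart. In Arabidopsis their transcripts are best known from maturing embryos, where seed transcription factors such as ABI3 switch on the storage programme.

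The study asked how loss of CEP1, a papain-like cysteine protease, changes gene expression in the maturing stem. The WT was Columbia-0. The *cep1* mutant carried a homozygous T-DNA insertion (SALK_013036) in the third exon of *CEP1* and was represented by this single insertion line. Both libraries came from untreated greenhouse plants, were labelled as mature stem at 25 days after flowering, and were not replicated. The study describes collection by developmental stage, when the stem had stopped flowering and most siliques had opened. Counted from bolting, *cep1* reached this stage about a week later than the WT. The labels count from flowering, which was also later in *cep1*, so their equal ages do not conflict with this delay. Because *cep1* stems were collected about a week later, genotype and time of collection cannot be told apart. The targeted gene *CEP1* had 15 *cep1* reads and 1269 WT reads, an 89.1-fold lower level.

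The libraries held 22077141 (*cep1*) and 20962056 (WT) reads on genes, as recovered from counts, lengths and FPKM. FPKM is the read count scaled to the length of the gene's transcript and to the library total. The limit set by a count of 0 was taken as 3 reads, which is 1.36e-05% of the *cep1* library. The table lists only genes that the authors marked as lower in *cep1*, so the direction of every difference given here was set by the table. The stem label could not be checked, because 0 of 7 xylem and fibre markers are in the table and genes outside it were not analysed here. Of 11 seed storage markers, 9 were in the table, with 78936 reads in the WT, 0.377% of that library, and none in *cep1*. All intervals are 95% intervals for counting error only. The reads carry no molecular identifiers and may repeat the same molecule, so the intervals may be too narrow even for counting error. They do not cover the spread between plants, which 1 library per genotype cannot show, and no test was made.

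The stretches upstream of *OLEO1*, *OL3* and *OL2* are shown first because there these 3 genes could be compared without using their expression. Each is the 250 bases before the annotated gene start in RefSeq TAIR10.1, written 5′ to 3′ on the strand of the gene. Capitals mark matches on either strand to CATGCA (the RY element, bound by B3 factors such as ABI3), ACGTG (the core of the abscisic acid response element, ABRE), CACGTG (the G-box, which contains the ABRE core on each strand) and TATAAA (the TATA box). The windows lie at chr4:12900180-12900429 on the forward strand (*OLEO1*), chr5:20819818-20820067 on the forward strand (*OL3*) and chr3:10242994-10243243 on the forward strand (*OL2*), and none overlaps another annotated gene.
OLEO1: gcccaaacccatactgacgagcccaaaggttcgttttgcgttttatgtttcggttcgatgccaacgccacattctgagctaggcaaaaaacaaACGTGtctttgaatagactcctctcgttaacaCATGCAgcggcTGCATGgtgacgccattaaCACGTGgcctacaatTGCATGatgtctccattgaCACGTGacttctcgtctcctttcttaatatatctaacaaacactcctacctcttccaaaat
OL3: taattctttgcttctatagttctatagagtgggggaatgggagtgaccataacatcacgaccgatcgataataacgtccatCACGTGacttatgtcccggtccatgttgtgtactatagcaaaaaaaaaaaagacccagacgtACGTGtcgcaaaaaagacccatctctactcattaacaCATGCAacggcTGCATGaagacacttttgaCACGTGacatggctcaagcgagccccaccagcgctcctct
OL2: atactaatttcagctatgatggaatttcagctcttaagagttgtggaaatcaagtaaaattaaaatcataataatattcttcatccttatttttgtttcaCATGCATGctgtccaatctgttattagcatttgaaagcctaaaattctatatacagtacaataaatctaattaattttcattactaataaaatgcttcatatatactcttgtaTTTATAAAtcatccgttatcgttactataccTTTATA

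An RY match was present upstream of all 3 genes. *OLEO1* had 3, starting 125, 114 and 80 bases before the gene, and *OL3* had 2, at 70 and 59 bases. *OL2* had 2 that overlap, at 150 and 148 bases. CATGCA occurs in 2314 of 27443 promoters of the same length (8.43%) and in 108 of the 717 windows of the table's genes (15.1%). The promoters were taken before RefSeq starts, but the 717 windows before the starts listed in the deposited table, which often differ. Of the 3 genes, *OLEO1* had G-boxes at 95 and 61 bases and *OL3* at 169 and 40 bases, and *OL2* had none. The G-box occurs in 6.49% of all promoters and 13.7% of the windows of the table's genes. The ABRE core matched 5 times in each of the windows of *OLEO1* and *OL3*, 4 of them within G-boxes, and not in that of *OL2*. It occurs in 22.9% of all promoters and 37.1% of the windows of the table's genes. TATAAA matched 3 times upstream of *OL2* and not in the windows of *OLEO1* and *OL3*. It occurs in 47.4% of all promoters and 55.8% of the windows of the table's genes. These are matches of letters and not measured binding sites.

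The start of *OL2* depends on the annotation. RefSeq places it 511 bases upstream of the start listed in the deposited table, and the window before the listed start held 1 RY match, 99 bases upstream, 1 ABRE core match, 63 bases upstream, and no TATAAA. RY was thus present in all 3 windows with either start. Base composition differed as well, with 45.2% G and C in the window of *OLEO1* and 45.6% in that of *OL3*, against 25.2% in that of *OL2*.

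**Figure D1:**
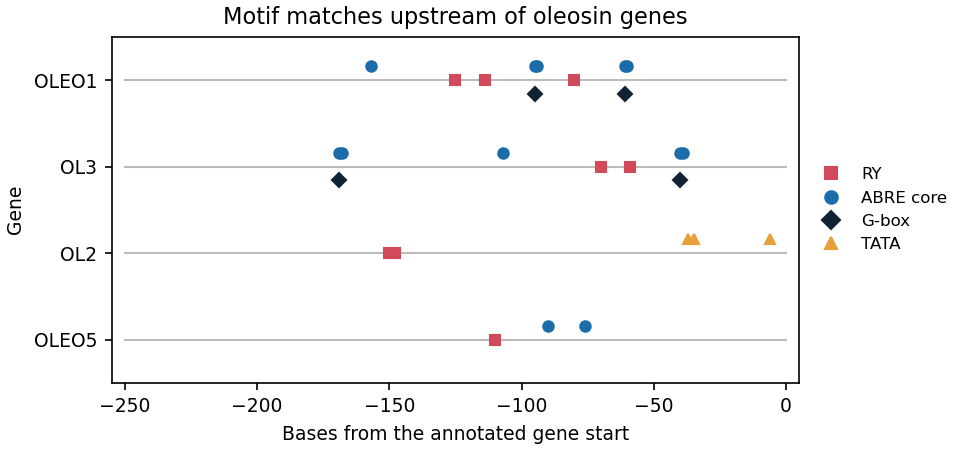
Positions of the motif matches in the 250 bases upstream of *OLEO1*, *OL3*, *OL2* and *OLEO5*, in bases from the RefSeq gene start (0, at the right). Each symbol is 1 match on either strand. RY matches (squares) occur in every row, G-boxes (diamonds) only in the rows of *OLEO1* and *OL3*, and TATA matches (triangles) only in that of *OL2*.

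*OLEO1* and *OL3* also shared the order and spacing of their matches. In both, an RY match is followed by another on the opposite strand 11 bases further and by a G-box 19 bases after that. The stretches are chr4:12900305-12900340 and chr5:20819998-20820033, both on the forward strand, and were chosen for display after the sequences had been seen, with the RY and G-box letters in capitals.
OLEO1: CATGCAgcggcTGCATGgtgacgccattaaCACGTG
OL3: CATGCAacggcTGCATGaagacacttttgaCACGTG
They differ at 7 of 36 bases, all outside the capitals. The bases in capitals are the same in both because the stretches were chosen by them. A search for this arrangement, with the spacing taken from these genes themselves, found it in 3 of 27443 promoters. The third is that of AT4G25130, a methionine sulfoxide reductase gene that runs in the opposite direction from *OLEO1*. Its window overlaps that of *OLEO1* and holds the same 36 bases, so no separate stretch was found. AT4G25130 is not among the 733 genes.

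Among the other genes of the table, RY matches were found in 25 of the 58 windows of genes without a read in *cep1* (43.1%) and in 79 of the 655 windows of genes with reads (12.1%), the 4 oleosins left out. These windows lie before the starts listed in the deposited table, not before the RefSeq starts used for the sequences shown above. The G-box was in 11 of these 58 windows and in 85 of these 655. The corresponding shares were 48.3% and 35.9% for the ABRE core and 62.1% and 55.6% for TATAAA. *OL2*, the only one of the 4 oleosins with reads in *cep1*, had RY matches, as did *OLEO1* and *OL3*. Unlike the windows shown above, this split uses the *cep1* reads, and the genes without a read include seed storage genes and *ABI3*. Whether RY matches bear on the reads in *cep1* was not tested.

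In the WT stem *OLEO1* had the highest level, with 5156 reads and 271 FPKM (264 to 278). *OL3* followed with 2755 reads and 179 FPKM (172 to 186). *OLEO2* had 2518 reads and 138 FPKM (132 to 143). *OL2* was the lowest, with 1669 reads and 91.1 FPKM (86.8 to 95.6). The intervals of neighbours in this order did not overlap. Per length, *OLEO1* was 1.51 times (1.44 to 1.59) the level of *OL3*, *OL3* was 1.30 times (1.23 to 1.37) that of *OLEO2*, and *OLEO2* was 1.51 times (1.42 to 1.61) that of *OL2*. The order was the same by raw counts, by counts per kilobase of the listed length and by counts per kilobase of the longest RefSeq transcript. For *OL2* the listed length of 874 bases is much shorter than that transcript, 1385 bases, and with the RefSeq lengths *OLEO2* was 2.26 times (2.12 to 2.40) the level of *OL2*.

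*OLEO1* thus gave 39.9% of the summed FPKM of the 4 genes in the WT, *OL3* 26.4%, *OLEO2* 20.3% and *OL2* 13.4%. All 4 lay in the upper part of the table. By WT FPKM they ranked 65, 106, 145 and 228 of 733, and their median of 158 FPKM compares with 49.4 over all genes of the table. Together they took 0.0577% of the WT reads (Wilson interval, 0.0567 to 0.0588).

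In the *cep1* stem the order could no longer be read, because only *OL2* was above 0. *OL2* had 137 reads, or 7.10 FPKM (5.96 to 8.39), which is 7.79% of its WT level (6.50 to 9.28) and a log2 ratio of -3.68 (-3.94 to -3.43). *OLEO1* had 0 reads and was at least 1810-fold lower than in the WT, *OL3* had 0 reads and was at least 967-fold lower, and *OLEO2* had 0 reads and was at least 884-fold lower. These values set 3 reads in place of 0 in *cep1*, which would correspond to 0.150, 0.185 and 0.156 FPKM. The gene with the fewest reads in the WT was therefore the one with reads left in *cep1*. In bulk stem RNA, fewer cells with oleosin transcripts and less transcript per cell cannot be told apart.

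The difference between *OL2* and the other genes was larger than counting error. Had *OLEO1* kept the same share of its WT level as *OL2*, 423 reads would correspond to it in *cep1*, with 226 for *OL3* and 207 for *OLEO2*, where 0 were counted. With 3 reads in place of 0 the log2 ratios were -10.82 for *OLEO1*, -9.92 for *OL3* and -9.79 for *OLEO2*, all below the interval of *OL2*. Among the 3 genes without reads, the bounds follow their WT counts and give no order.

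**Figure D2:**
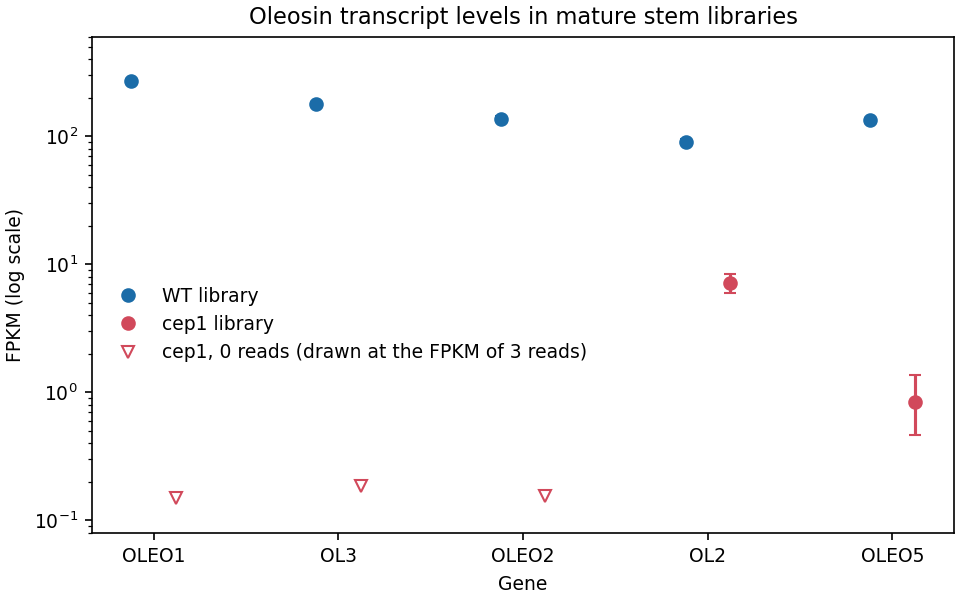
FPKM (log axis) of the 4 oleosin genes and *OLEO5* in the WT library (blue) and the *cep1* library (red), with 1 library per genotype. Bars are exact 95% Poisson intervals of the read count and are mostly smaller than the points. Open triangles stand for 0 reads and are drawn at the FPKM of 3 reads. The WT levels lie between 91.1 and 271 FPKM, and in *cep1* *OL2* lies at 7.10 and *OLEO5* at 0.835.

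Summed over the 4 genes, 12098 reads in the WT stood against 137 in *cep1*, a 93.0-fold lower level with a log2 ratio of -6.54 (-6.79 to -6.30). All 137 reads belonged to *OL2*, so the sum measures mostly that gene's remainder. Without *OL2*, 10429 reads stood against 0, at least 3661-fold lower, with a log2 ratio bounded at -11.84.

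All 4 oleosins were at least 8-fold lower in *cep1*, as were 242 of the 733 genes of the table (33.0%). No read was counted in *cep1* for 3 of the 4 oleosins and for 61 of the 733 genes (8.32%). To set aside genes with few WT reads, the same was counted over the 444 genes with a WT count of 1000 or more, which include all 4 oleosins. Of those, 82 (18.5%) were at least 8-fold lower and 22 (4.95%) had no read. The median log2 ratio was -9.85 over the 4 oleosins and -2.10 over the table. Among the 61 genes without a read, *OLEO1* ranked 8, *OL3* 12 and *OLEO2* 15 by WT FPKM.

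**Figure D3:**
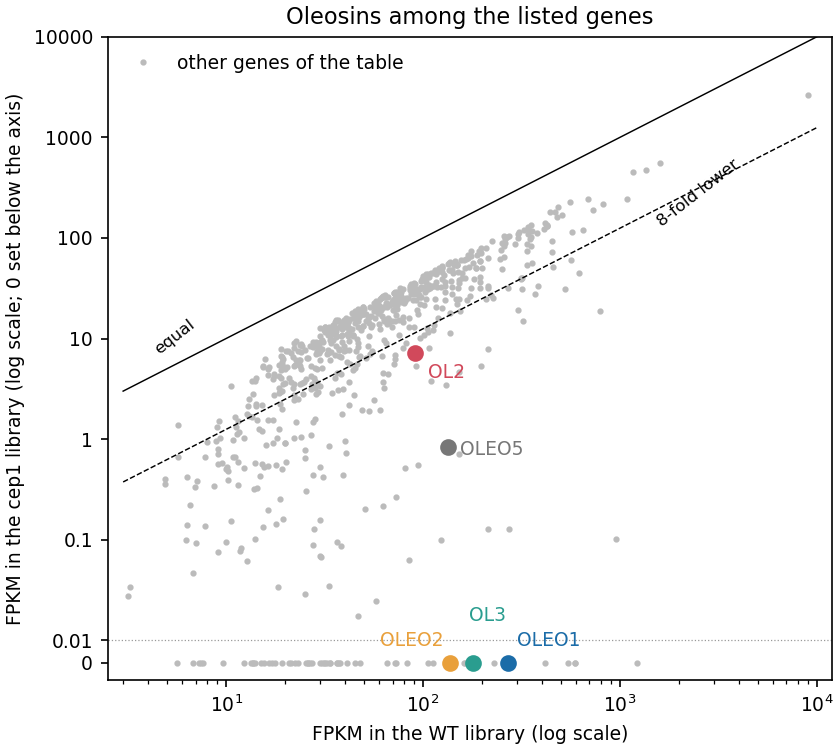
FPKM in the *cep1* library against FPKM in the WT library for the 733 genes of the table, both on log axes, with 0 drawn below the dotted line. The solid line marks equal levels and the dashed line an 8-fold lower level in *cep1*. *OLEO1*, *OL3* and *OLEO2* lie on the row of 61 genes at 0, and *OL2* and *OLEO5* lie below the dashed line.

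The table holds 1 more oleosin gene, *OLEO5* (AT3G01570), which was not among the 4 chosen. It had 2275 reads and 133 FPKM (128 to 139) in the WT, and 15 reads and 0.835 FPKM (0.467 to 1.38) in *cep1*. It was 160-fold lower in *cep1*, with a log2 ratio of -7.32 (-8.16 to -6.59), and its remainder of 0.626% (0.350 to 1.03) was below that of *OL2*. Its WT level could not be told from that of *OLEO2*, which was 1.03 times as high (0.976 to 1.09). Its upstream window, which overlaps the annotated gene AT3G01572, had 1 RY match and 2 ABRE core matches.

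The oleosin transcripts share only short identical stretches. The longest stretch of identical bases shared by the transcripts of any pair was 17 bases, between *OLEO2* and *OL2*, and 9 to 13 bases for the other pairs. Overlap with neighbouring genes was also short. The end of *OLEO1* overlaps AT4G25150 on the opposite strand by 44 bases, and that of *OLEO2* overlaps AT5G40410 by 15 bases. Whether reads were counted by strand is not given in the sources used here, so reads in these bases cannot be assigned to either gene. *OL2* overlaps no gene, and its nearest neighbour, AT3G27670, begins 88 bases away on the same strand and is not in the table.

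In TAIR10.1 each oleosin gene has 2 exons. *OLEO1* spans chr4:12900430-12901577 on the forward strand, with an intron of 240 bases and a protein of 173 residues. *OL3* spans chr5:20820068-20820944 on the forward strand, with an intron of 110 bases and 141 residues. *OLEO2* spans chr5:16173340-16174783 on the reverse strand, with an intron of 519 bases and 199 residues. *OL2* spans chr3:10243244-10245023 on the forward strand, with an intron of 395 bases and 191 residues. From the RefSeq start its 5′ untranslated region of 607 bases is the longest of the 4, the others having 43 to 103. The start listed in the deposited table lies 511 bases downstream, so this rank depends on the start used.

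By protein sequence the genes fell into pairs. *OLEO1* and *OL3* encode proteins identical at 68.8% of aligned positions (97 of 141), and those of *OLEO2* and *OL2* are identical at 65.1% (121 of 186). Across the pairs identity was 35.5% to 39.4%. The protein of *OLEO5* was closer to those of *OLEO2* (59.4%) and *OL2* (52.3%) than to those of *OL3* (40.6%) and *OLEO1* (34.7%). *OL2*, with reads left in *cep1*, and *OLEO2*, with none, thus belong to the same pair.

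The stretch that defines an oleosin is the proline knot, a proline, 5 variable residues, a serine and a proline, 3 variable residues and a proline. It occurred once in each protein. Its 36 bases are printed because they show the same division into pairs at the base level, with capitals for the codons of the fixed prolines and serine. They lie in exon 1 of *OLEO1* (chr4:12900723-12900758) and *OL3* (chr5:20820348-20820383), and in exon 2 of *OLEO2* (chr5:16173928-16173963, reverse strand), *OL2* (chr3:10244498-10244533) and *OLEO5* (chr3:222461-222496, reverse strand).
OLEO1: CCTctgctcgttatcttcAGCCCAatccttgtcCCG
OL3: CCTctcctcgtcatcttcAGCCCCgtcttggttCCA
OLEO2: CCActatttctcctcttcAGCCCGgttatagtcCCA
OL2: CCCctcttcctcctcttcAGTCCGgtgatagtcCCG
OLEO5: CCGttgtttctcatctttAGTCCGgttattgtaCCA
*OLEO2* and *OL2* differ at 6 of 36 bases and *OLEO1* and *OL3* at 8, against 11 to 13 between genes of different pairs. The hydrophobic stretch around the knot, taken as the run with a mean Kyte-Doolittle hydropathy above 0 in windows of 19 residues, was 70 windows long in the protein of *OLEO1* and 71 in that of *OL3*, and 77 and 75 in those of *OLEO2* and *OL2*. Its peak was 2.62 to 2.73 in the 4 proteins.

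**Figure D4:**
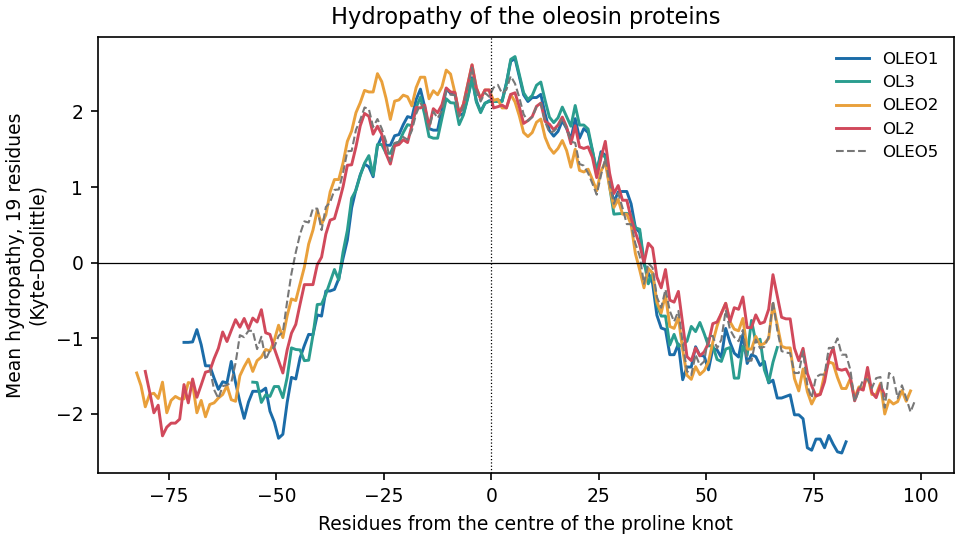
Mean Kyte-Doolittle hydropathy in windows of 19 residues along the 5 oleosin proteins, aligned on the centre of the proline knot (dotted line). Values above 0 are hydrophobic. All curves have 1 hydrophobic stretch around the knot, and on its left side the curves of *OLEO1* and *OL3* cross 0 closer to the knot than those of the others.

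Other oil body proteins did not all share the pattern. Of 23 listed genes for oil body and lipid droplet proteins, 11 were in the table, including the 4 oleosins. The other 7 included 2 without a read in *cep1* and 3 at least 8-fold lower, against 8.32% and 33.0% of the table, and their median log2 ratio was -2.31, against -2.10 over all genes of the table. *CLO1*, a caleosin of seed oil bodies, had 475 WT reads and no read in *cep1*, a level at least 167-fold lower. *HSD6*, a gene for a steroleosin-like dehydrogenase, had 0 and 236 reads and was at least 82.9-fold lower.

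The other 4 of these 7 genes were under 8-fold lower. *CLO3* (*RD20*), a caleosin induced by drought, had 2270 *cep1* and 10700 WT reads, a 4.96-fold lower level. *CLO4*, another caleosin, had 670 and 1565 reads, a 2.46-fold lower level. The lipid droplet-associated proteins LDAP1 and LDAP3, which coat droplets in leaves and other vegetative tissues, were represented by 2692 against 6211 reads and 772 against 1899 reads, 2.43-fold and 2.59-fold lower levels. Each of these 4 genes had a ratio interval above that of *OL2*.

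The authors' lipid particle term held 12 genes of the table, including the 5 oleosins, and 9 of these 12 were at least 8-fold lower. With the 4 oleosins left out it was 5 of 8, one of them *OLEO5*, against 33.0% of the table. Beside genes already named it held AT1G05510, with 252 WT reads and no read in *cep1*, the probable peroxygenase gene *PXG5* (AT1G70680), with 18 *cep1* and 373 WT reads, and *DOX1*, an alpha-dioxygenase gene, with 33 and 371. *PXG5* was 21.8-fold lower and *DOX1* 11.8-fold lower, and their remainders of 4.58% (2.69 to 7.34) and 8.45% (5.73 to 12.1) had intervals that overlap that of *OL2*. All 4 oleosins carried this term and the term for lipid storage bodies surrounded by a monolayer. *OLEO1*, *OLEO2* and *OL2* also carried seed oilbody biogenesis, which in the table is otherwise held only by AT1G05510. *OL3* carried no biological process term.

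Genes for making the oil itself were few in the table. Of 15 listed genes of triacylglycerol synthesis and breakdown, 2 were present. *FAE1*, which elongates fatty acids for seed oil, had 461 WT reads and none in *cep1*, a level at least 162-fold lower. *DGAT3*, for a soluble acyltransferase that makes triacylglycerol, had 4969 *cep1* and 11364 WT reads, a 2.41-fold lower level.

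Of 11 listed regulators of seed maturation, 4 were in the table. *ABI3*, a B3 factor that binds RY elements, had 352 WT reads and none in *cep1*, a level at least 124-fold lower. *L1L*, a subunit of the NF-Y complex of the embryo, had 2 and 585 reads, a log2 ratio of -8.27 (-11.32 to -6.41). *WRI1*, which activates fatty acid synthesis, kept 111 of 705 reads, 14.9% of its WT level (12.1 to 18.3), and *EEL*, a bZIP factor of late embryogenesis, kept 103 of 545, 17.9% (14.4 to 22.2). These regulators were low in the WT as well, at 5.62 to 27.6 FPKM.

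**Figure D5:**
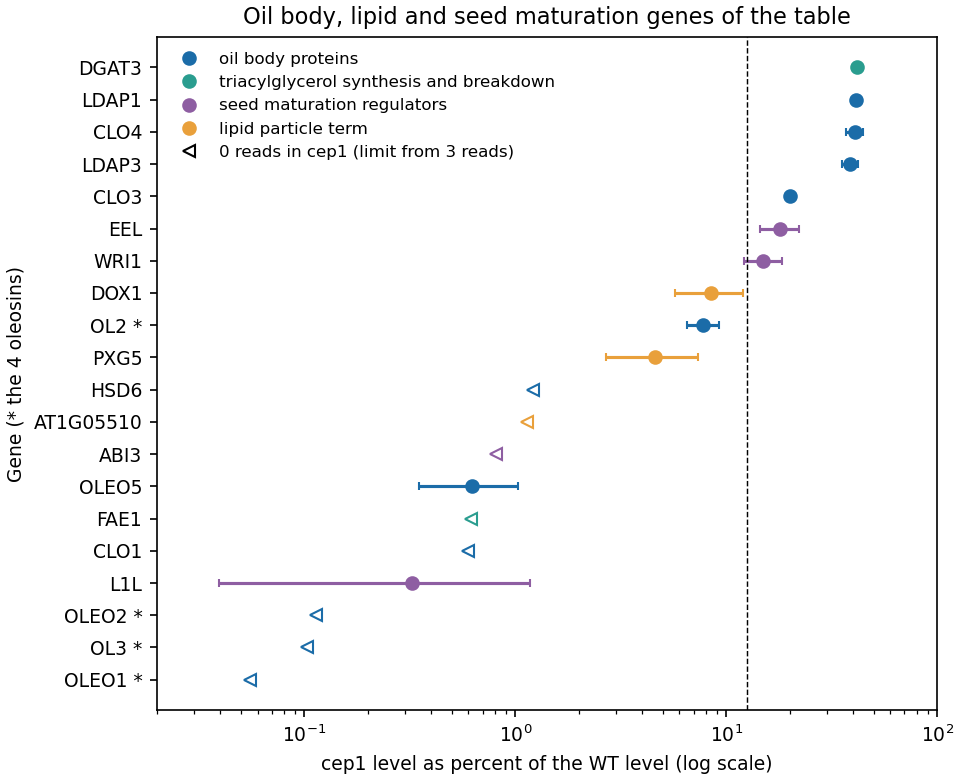
Level in *cep1* as a percentage of the WT level (log axis) for the genes of the table on the lists of oil body proteins, triacylglycerol genes and seed maturation regulators and with the lipid particle term. Points have exact 95% intervals, open triangles mark 0 reads and lie at the value of 3 reads, and the dashed line marks an 8-fold lower level. *OL2* lies at 7.79%, between *PXG5* at 4.58% and *DOX1* at 8.45%, and *OLEO5* lies at 0.626%.

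Seed and fruit markers were also in the table, where every gene is lower in *cep1*. The 9 seed storage genes in the table, for 12S globulins and 2S albumins, each had 1305 to 19882 WT reads, with a summed level of 3767 FPKM, and none had a *cep1* read. In the *cep1* library these 9 of the 11 seed storage markers were thus at 0, as were *OLEO1*, *OL3* and *OLEO2*, while *OL2* and *OLEO5* were not. Of 6 seed coat markers 4 were in the table, with 1470 *cep1* and 6609 WT reads in sum, and only *TT10*, a laccase gene, had none in *cep1* and 1370 in the WT. *GL2* had 20 and 485 reads, *TT8* 72 and 491, and *DFR* 1378 and 4263. Of 4 fruit valve and dehiscence markers 1 was in the table, *ALC*, with 129 and 976 reads. None of 4 tapetum and pollen markers was. The markers outside the table were not analysed here. The part of seed or fruit tissue in the oleosin result was not tested.

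The genes most like each oleosin were taken as the 2 nearest in log2(FPKM + 0.1) over the 2 libraries. For *OLEO1* these were *CRB*, a 12S globulin gene, with 276 FPKM in the WT, and AT1G62060, with 264. For *OL3* they were *ATTI7*, a gene for a defensin-like protein, with 182, and AT5G15360, with 163. For *OLEO2* they were AT5G15360 and *CRA1*, another 12S globulin gene, with 162. All 5 of these genes had 0 reads in *cep1*. The *cep1* level was part of the distance, so genes at or near 0 there were picked for these oleosins. Likewise, the nearest genes for *OL2* had reads in both libraries. They were *MGL*, which encodes methionine gamma-lyase, with 8.07 FPKM in *cep1* and 79.2 in the WT, and AT5G39130, a germin-like protein gene, with 8.07 and 107.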

How the data were processed

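RNA-seq of mature stem was available as 1 *cep1* and 1 WT library. The sources name TopHat2 2.0.12, Bowtie2 2.2.3 and HTSeq 0.6.1. The genome build is not given in the sources used here. The authors deposited raw read counts and FPKM per gene for 733 genes, all marked down-regulated. The authors also deposited normalized counts, a signal 20.3 (*cep1*) and 22.8 (WT) times smaller than the raw counts. The deposited columns of fold changes, p-values and adjusted p-values hold the authors' own comparison and were not used. The 4 genes and the gene lists were chosen with earlier results of these data known.

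Each library total was calculated from count, length and FPKM for every gene with 100 or more reads, and the median was used. Ratios were taken on raw counts divided by these totals, with exact (Clopper-Pearson) 95% intervals, shares with Wilson intervals and FPKM with exact Poisson intervals. Counts of 0 were set to 3 reads. With 1 library per genotype no edgeR test could be fitted. The genes named were the oleosins, the table's genes on the lists and the lipid body terms, and for each oleosin the 2 nearest genes. Markers were added as stated. Coordinates and sequences were from RefSeq TAIR10.1, in which all 700 nuclear genes matched by locus tag overlapped the listed gene on the same strand and 112 had the same start and end. The upstream window of 1 of the 4 genes is not reported here. Proteins were aligned globally with BLOSUM62. Intervals were tested on simulated data. Python 3.11.15, numpy 2.4.6, pandas 2.3.3, scipy 1.17.1, biopython 1.88 and matplotlib 3.10.9 were used. Alternatives were other scalings, FPKM with a pseudocount of 0.1 or 1, other values for a count of 0, other fold and count thresholds and leaving out each gene.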

Additional observations from a re-analysis of the deposited data

How the results depend on the processing

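The direction of the ratios was set by the table. Over the scalings and pseudocounts tried, the log2 ratio of *OL2* lay between -3.68 and -3.44. The bounds for *OLEO1*, *OL3* and *OLEO2* depend on the value set for 0 reads, and were -10.08, -9.18 and -9.05 with 5 reads in place of 0 and -8.09, -7.49 and -7.12 with FPKM + 1. The summed log2 ratio of -6.54 became -5.74 without *OLEO1*, -6.17 without *OL3*, -6.20 without *OLEO2* and -11.84 without *OL2*. All 4 oleosins were at least 4-fold lower and 3 at least 16-fold lower, since *OL2* was 12.8-fold lower. Over the 733 genes of the table, 394 were at least 4-fold, 242 at least 8-fold and 167 at least 16-fold lower, and 82 of those with at least 1000 WT reads passed 8-fold. The order of the WT levels was the same by raw counts, per kilobase of the listed length and, an alternative chosen after seeing the data, per kilobase of the longest RefSeq transcript, although the ratio of *OLEO2* to *OL2* then rose from 1.51 to 2.26. On the authors' scaling all log2 ratios would be 0.24 higher. No paired analysis was possible because each genotype has 1 library, and for the same reason no replicate could be left out. The depth allows no ratio for the genes at 0 reads, only a bound.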
